A study of Nothobranchius furzeri with 8 samples.

Results

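This report describes 4 genes of the excitatory synapse in the brain of the turquoise killifish *Nothobranchius furzeri*: a copy of GRIN2C (Nfu_g_1_001314), a copy of DLGAP1 (Nfu_g_1_010641) and a pair of IQSEC1 copies (Nfu_g_1_001603 and Nfu_g_1_001987). They are 4 of the 26739 genes in the table and all 4 were among the 19517 genes tested, which had at least 1 count in each library. They were chosen by their counts in these same 8 libraries, since an earlier comparison had placed them among the synaptic genes with lower counts in wild fish. Their wild against captive difference is therefore given as a description, with no test. The tests below concern other genes. Such a comparison can favour genes that vary little within a group, so the spread of the 4 genes within groups is given as a description too.

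At a glutamatergic synapse the transmitter opens NMDA receptors, which join an obligatory GluN1 subunit (the gene GRIN1) to GluN2 subunits that set how the channel opens and closes. GRIN2C encodes GluN2C, a subunit that in rodents is best known from granule cells of the cerebellum. DLGAP1 encodes GKAP, a scaffold protein of the postsynaptic density that ties the PSD-95 family, on which the receptors are anchored, to the Shank proteins below. IQSEC1 encodes BRAG2, an exchange factor that loads GTP onto the small GTPase ARF6 and in rodents takes part in the removal of AMPA receptors from the synapse.

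RNAseq of whole brains was available from 4 wild and 4 captive fish, all male. The wild fish came from population A41 and were 39 days old (days post hatching), and their brains were dissected at the pond and kept in RNAlater. The captive fish were of strain MZM-0410, bred in a fish facility, and were 35 days old. The groups differ in population of origin, rearing, age and sample storage, and the RNA integrity number listed for each library was lower in every wild fish than in every captive fish, so the parts of these factors cannot be told apart. The labels list no genetic alteration and no treatment in either group. A library is 1 fish per the labels, so p-values measure the spread between fish. The study reports a higher average kinship among its captive than among its wild fish. Relatedness was not modelled here, and the tests treat the fish of a group as independent.

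Total counts were 13923243 to 14541119 (median 14229501) in wild libraries and 11814586 to 14393377 (median 12892460.5) in captive libraries. Levels are given in CPM (counts scaled to a common library total after TMM scaling, a correction for library composition). Differences are log2 fold changes (wild over captive) with standard errors (SE) from edgeR's quasi-likelihood fit, and a gene is said to differ at an adjusted p under 0.05 over all genes tested. In total 8115 of 19517 genes (41.6%) differed, 3864 (19.8%) higher and 4251 (21.8%) lower in wild fish. The median log2 fold change was 0.04, with 5% of the genes below -1.48. The 17 tested neuronal marker genes summed to 5983 to 6553 RPM (reads scaled to the library total) in wild brains and 6123 to 6708 RPM in captive brains, ranges that overlapped.

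The names are those of human genes that the study's supplementary tables attach to the killifish identifiers, and several killifish genes can carry the same human name. They are read here as family names. Each of the 4 genes, and many of their relatives, are named only through the study's list of condition-dependent genes, which was drawn partly from these libraries. Of the 2778 tested genes named only that way, 2715 differed here and 63 did not. Counts of genes that differ are therefore given again over genes named in the other tables, called named outside the list. Such genes can still be on the list, and their human name can come from it where another table gives a killifish name. Some of the other tables are also lists of genes that the study called as differing. Of all 7344 tested genes with a name, 4838 (65.9%) differed and 2452 (33.4%) were lower in wild fish. Of the 4566 tested genes named outside that list, 2123 (46.5%) differed and 1047 (22.9%) were lower in wild fish.

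The GRIN2C copy Nfu_g_1_001314 had 46.1, 57.3, 56.2 and 50.6 CPM in wild fish 1 to 4, against 131, 155, 157 and 159 CPM in captive fish 1 to 4. The lowest captive fish was 2.29 times the highest wild fish. The means were 52.5 ± 5.19 CPM in wild brains, against 150.5 ± 13.0 CPM in captive brains (SD, n = 4 each), a log2 fold change of -1.52 (SE 0.09). The reads behind these values numbered 652 to 820 per wild library and 1522 to 2276 per captive library. Captive fish 1 lay apart from the other captive fish, at 131 CPM, and wild fish 1 was the lowest wild fish.

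The DLGAP1 copy Nfu_g_1_010641 stood furthest apart between the groups. It had 5.30, 6.99, 6.93 and 7.76 CPM in wild fish 1 to 4, against 33.9, 52.0, 49.0 and 48.5 CPM in captive fish 1 to 4. Every captive fish was more than 4 times as high as any wild fish, with a smallest ratio of 4.37. The means were 6.75 ± 1.03 CPM in wild brains, against 45.9 ± 8.09 CPM in captive brains (SD, n = 4 each), a log2 fold change of -2.76 (SE 0.16). It also had the fewest reads of the 4 genes, 75 to 112 per wild library and 394 to 695 per captive library.

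The first IQSEC1 copy, Nfu_g_1_001603, had 65.4, 72.2, 71.3 and 76.8 CPM in wild fish 1 to 4, against 167, 159, 161 and 167 CPM in captive fish 1 to 4. The captive fish lay within a factor of 1.05 of each other, and the lowest of them was 2.07 times the highest wild fish. The log2 fold change was -1.19 (SE 0.06), between means of 71.4 ± 4.67 CPM in wild brains, against 163 ± 4.28 CPM in captive brains (SD, n = 4 each).

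The second IQSEC1 copy, Nfu_g_1_001987, was the most abundant of the 4 and had the smallest difference. It had 431, 498, 459 and 475 CPM in wild fish 1 to 4, against 552, 671, 652 and 575 CPM in captive fish 1 to 4. The groups were separated by a narrow margin, the lowest captive fish being 1.11 times the highest wild fish. The log2 fold change was -0.39 (SE 0.07), between means of 466 ± 28.2 CPM in wild brains, against 612 ± 57.8 CPM in captive brains (SD, n = 4 each). In all 4 genes every wild fish lay below every captive fish. Over all genes tested the same held for 20.7%, and since the difference chose the genes, nothing is read from that count. In whole tissue, fewer cells of a type and less RNA per cell cannot be told apart.

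**Figure D1:**
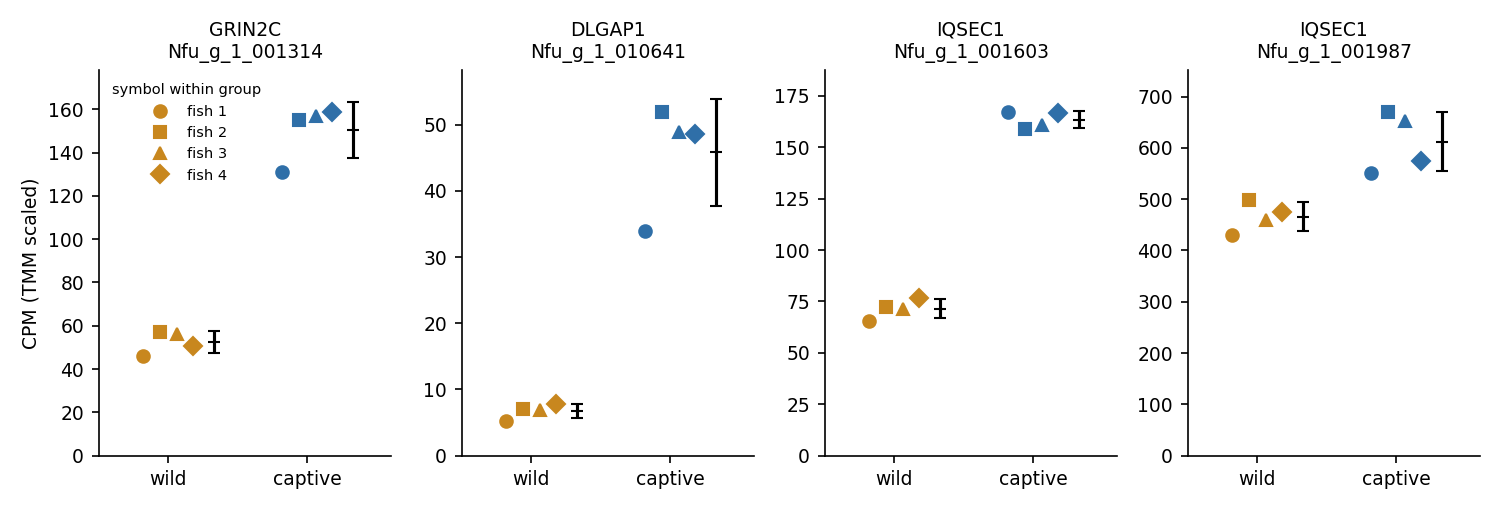
Levels of the 4 genes in each brain, as CPM after TMM scaling on a linear axis from 0 (a scale of its own per panel), with the 4 wild fish left of the 4 captive fish and symbols for fish 1 to 4 of each group. Black bars are the mean and SD of a group, and in each panel every wild fish lies below every captive fish, by the smallest margin in Nfu_g_1_001987.

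The 4 genes also varied between fish of the same group, which is described here without a test. The coefficient of variation of the GRIN2C copy was 9.87% in wild and 8.66% in captive fish. That of the DLGAP1 copy was 15.3% in wild fish, close to the median of 15.8% of the 500 genes nearest to it in mean level, and 17.7% in captive fish, above 92.2% of such genes. The IQSEC1 copy Nfu_g_1_001603 varied by 6.53% in wild fish and by 2.62% in captive fish, where only 9.6% of genes of like level varied less. The copy Nfu_g_1_001987 varied by 6.06% in wild and by 9.44% in captive fish.

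Fish 1 of each group was often the lowest. Wild fish 1 was the lowest wild fish for all 4 genes, by 0.11 to 0.33 below the group mean on the log2 scale. Captive fish 1 was the lowest captive fish for the GRIN2C copy, the DLGAP1 copy and Nfu_g_1_001987, by 0.15 to 0.41, but the highest for Nfu_g_1_001603, at 0.03 above the mean. Other genes of related lists were often lowest in the same fish. Of 129 other tested genes in 8 lists of glutamate receptors, scaffolds, regulators and adhesion proteins (described below), 77 (59.7%) were lowest in wild fish 1, against 28.9% of all genes tested, and 61 (47.3%) were lowest in captive fish 1, against 27.2% of all genes tested. Over the 62 of them named outside the condition-dependent list, 29 (46.8%) were lowest in wild fish 1 and 23 (37.1%) in captive fish 1.

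The shift was small for most genes. The median deviation of the 129 genes from their group mean was -0.10 in wild fish 1 and -0.06 in captive fish 1 on the log2 scale, against -0.01 and 0.00 for all genes tested. Transcripts of at least 5000 bases deviated by -0.03 in wild fish 1 and by -0.02 in captive fish 1, and the 68 shorter of the 129 genes by -0.10 and -0.06. Leaving out wild fish 1 gave log2 fold changes of -1.46, -2.66, -1.15 and -0.36 for Nfu_g_1_001314, Nfu_g_1_010641, Nfu_g_1_001603 and Nfu_g_1_001987, and leaving out captive fish 1 gave -1.59, -2.90, -1.20 and -0.45 for the same genes.

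Over the 8 fish, after subtraction of the group means, the DLGAP1 copy went with the GRIN2C copy (Pearson's r = 0.80) and with Nfu_g_1_001987 (r = 0.78), and the GRIN2C copy with Nfu_g_1_001987 (r = 0.66). The copy Nfu_g_1_001603 had r = 0.38 with the DLGAP1 copy, 0.21 with the GRIN2C copy and 0.07 with its namesake Nfu_g_1_001987, values that pool opposite signs. Within the 4 wild fish its r was 0.98 with the DLGAP1 copy, 0.49 with the GRIN2C copy and 0.75 with Nfu_g_1_001987, and within the 4 captive fish it was -0.69, -0.51 and -0.99 with the same genes. These correlations are descriptions over few points that share libraries.

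**Figure D2:**
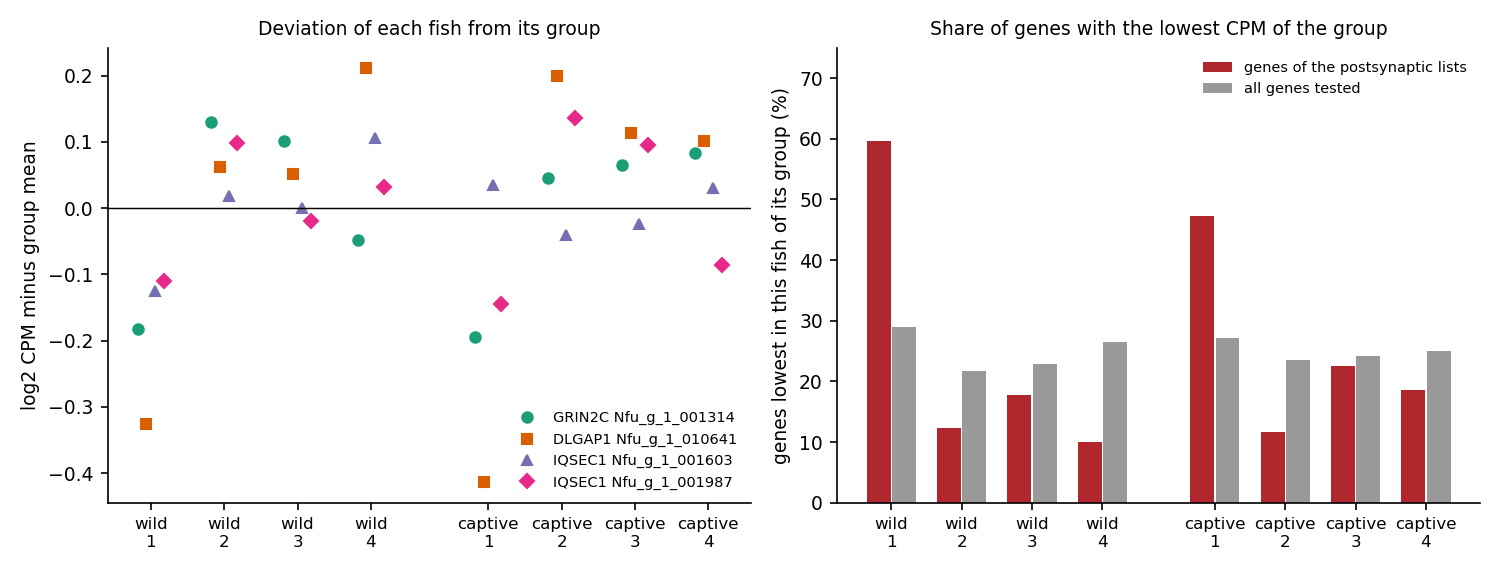
Left, log2 CPM of each of the 4 genes in each fish minus the mean of its group (wild fish left, captive fish right). Right, the percentage of genes whose lowest CPM of the group is in that fish. Red bars are the 129 genes of the lists described below, not all of them postsynaptic, and grey bars are all 19517 genes tested. The red bars reach 59.7% in wild fish 1 and 47.3% in captive fish 1.

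Levels between genes can be compared only per length of transcript, as RPKM (RPM per kilobase of transcript). In wild brains the IQSEC1 copy Nfu_g_1_001987 led all 10 genes of the 3 names at 53.9 ± 3.35 RPKM, and in captive brains it led at 69.4 ± 6.61 RPKM. The copy Nfu_g_1_001603 had 19.4 ± 1.18 RPKM in wild fish, where its range overlapped that of the other gene named IQSEC1 (Nfu_g_1_015504, 19.9 ± 0.59 RPKM). In captive fish it had 41.9 to 44.6 RPKM and lay clear above Nfu_g_1_015504 (27.1 ± 0.99 RPKM).

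The order among the GRIN2C and DLGAP1 genes also differed between the groups. A change of order can follow from the choice of the 4 genes by their difference, and it is given as a description. In wild fish the GRIN2C copy Nfu_g_1_001314 (5.54 ± 0.55 RPKM) lay below Nfu_g_1_016577 and Nfu_g_1_023026 and overlapped Nfu_g_1_009975, and in captive fish (15.6 ± 1.43 RPKM) it lay above all 3 of them. The DLGAP1 copy Nfu_g_1_010641 had 3.62 ± 0.54 RPKM in wild fish, below Nfu_g_1_006877 at 10.6 to 13.9 RPKM. In captive fish it had 24.1 ± 4.31 RPKM, above Nfu_g_1_006877 at 13.7 to 17.1 RPKM. Its range in captive fish overlapped that of Nfu_g_1_015504, next above it, and the range of Nfu_g_1_001314 overlapped that of Nfu_g_1_006877.

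**Figure D3:**
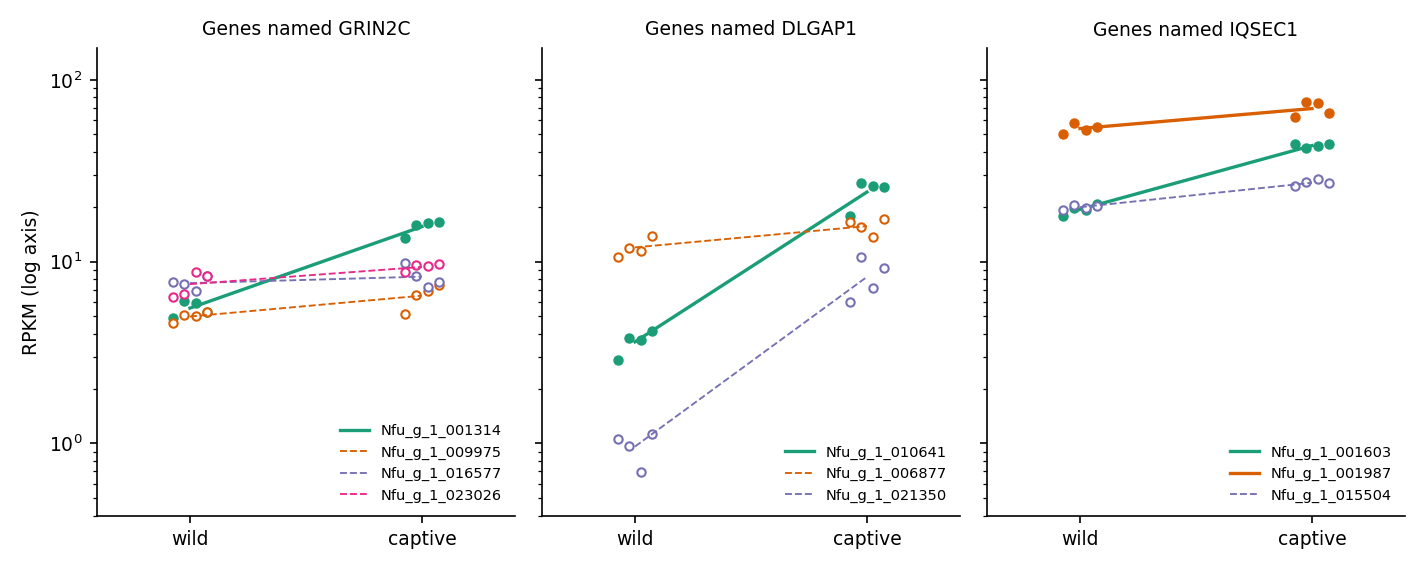
RPKM (log axis) of every tested gene that carries the human name GRIN2C, DLGAP1 or IQSEC1, in wild (left) and captive (right) fish. Points are single fish, lines join the group means, and filled points with solid lines are the 4 genes described, with open points and dashed lines for the other genes of the name. The solid line of GRIN2C crosses the dashed lines of Nfu_g_1_016577 and Nfu_g_1_023026, and that of DLGAP1 crosses Nfu_g_1_006877. The solid line of Nfu_g_1_001603 crosses Nfu_g_1_015504, from which its wild fish were not separated. Each lies below the lines it crosses in wild fish and above them in captive fish.

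Summed over all genes of a name, the 4 GRIN2C genes held 184.6 ± 12.6 RPM in wild and 310.2 ± 21.3 RPM in captive brains (SD, n = 4 each). The copy Nfu_g_1_001314 held 26.2% to 31.7% of that sum in wild fish and 46.1% to 49.3% in captive fish. Without it the other GRIN2C genes held 131.5 ± 10.4 RPM in wild and 161 ± 8.14 RPM in captive fish. Captive minus wild, the gap was 125.6 RPM over all GRIN2C genes, of which 95.9 RPM lay in this single copy. Because the 4 genes were chosen by their difference, their parts in such gaps and shares are a description only. The authors kept 1 alignment per read, so reads shared by near-identical copies could have been split between them, and levels of close copies are uncertain to that extent.

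The 3 DLGAP1 genes summed to 82.2 ± 9.38 RPM in wild and 168 ± 16.1 RPM in captive brains. The share of Nfu_g_1_010641 was 7.37% to 8.84% in wild fish and 21.8% to 31.4% in captive fish. The 3 IQSEC1 genes summed to 742 ± 38.3 RPM in wild and 1039.5 ± 62.8 RPM in captive brains. Here the pair of copies described held a like share in both groups, 72.4% to 73.9% in wild fish and 73.1% to 74.8% in captive fish.

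The other genes of the same names were found by name and not by their values. Of these 6, 5 were lower in wild fish and 1 did not pass the test, and all 6 log2 fold changes were below 0. Over all genes tested, 21.8% were lower, and over those with a name 33.4%. Of the 6 genes, 3 are named only through the condition-dependent list. Of the other 3, 2 were lower, against 22.9% of all tested genes named outside that list. Those 2 carry killifish names of related genes (DLGAP4 and IQSEC2), and Nfu_g_1_016577, with the killifish name GRIN2CA, did not pass. The gene furthest apart was the DLGAP1 gene Nfu_g_1_021350, which carries the killifish name DLGAP4, another GKAP family member. It had 3.61, 3.28, 2.40 and 3.88 CPM in wild fish 1 to 4, against 21.0, 37.6, 24.8 and 31.9 CPM in captive fish 1 to 4 (log2 fold change -3.13, SE 0.21, edgeR adjusted p = 3.75e-06). Its log2 fold change lay next to the -2.76 of Nfu_g_1_010641, with which its deviations from the group means went at r = 0.47 over the 8 fish.

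The third DLGAP1 gene, Nfu_g_1_006877, had the highest RPKM of the name in wild fish and fell by less, with 71.4 ± 8.53 CPM in wild brains, against 95.5 ± 9.39 CPM in captive brains (log2 fold change -0.42, edgeR adjusted p = 0.00657), and its groups overlapped. The IQSEC1 gene Nfu_g_1_015504, whose killifish name is IQSEC2, had 198 ± 6.23 CPM in wild brains, against 275 ± 8.81 CPM in captive brains (log2 fold change -0.48, edgeR adjusted p = 4.72e-05). The remaining GRIN2C genes differed little. Nfu_g_1_009975 had a log2 fold change of -0.41 (edgeR adjusted p = 0.0104) and Nfu_g_1_023026 of -0.34 (edgeR adjusted p = 0.0288). Nfu_g_1_016577, with the killifish name GRIN2CA, had 32.0 ± 2.38 CPM in wild brains, against 35.4 ± 5.02 CPM in captive brains and did not pass the test (log2 fold change -0.15, edgeR adjusted p = 0.281).

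The call for Nfu_g_1_023026 was lost when wild fish 1, wild fish 2, captive fish 2 or captive fish 4 was left out. Over all settings tried its adjusted p ran from 0.0104 (DESeq2) to 0.146 (edgeR with the length trend removed). When the trend of fold change on transcript length was removed, 3 of the 6 remained past the threshold: both further DLGAP1 genes and Nfu_g_1_015504.

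Among the partners and relatives of the 4 genes, 15 genes were tested, and 13 of them were lower in wild fish, 1 was higher and 1 did not pass, against 33.4% lower among all tested genes with a name. Of the 6 named outside the condition-dependent list, 4 were lower, 1 was higher and 1 did not pass, against 22.9% lower among such names. Both GRIN1 genes, for the obligatory NMDA receptor subunit, fell. Nfu_g_1_018335 had 456 ± 46.8 CPM in wild brains, against 606 ± 29.2 CPM in captive brains (log2 fold change -0.41, edgeR adjusted p = 0.00208). Nfu_g_1_017230 had 267 ± 52.7 CPM in wild brains, against 393 ± 65.8 CPM in captive brains (log2 fold change -0.56, edgeR adjusted p = 0.0117), with overlapping groups. Both GRIN2A genes, for the GluN2A subunit, also fell, with log2 fold changes of -0.67 (Nfu_g_1_007055) and -0.69 (Nfu_g_1_019483). Beside these, Nfu_g_1_001314 was at -1.52. With the length trend removed, the calls for GRIN1 Nfu_g_1_017230, SHANK2 Nfu_g_1_023411, DLGAP4 Nfu_g_1_001413 and IQSEC3 Nfu_g_1_008178 were lost, and the log2 fold changes of these genes were then -0.20, -0.09, -0.15 and -0.15.

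Of the scaffold genes next to GKAP in the postsynaptic density, SHANK2 Nfu_g_1_016200 had 30.4 ± 2.92 CPM in wild brains, against 87.9 ± 24.2 CPM in captive brains (log2 fold change -1.53, edgeR adjusted p = 0.000121). The other SHANK2 gene, Nfu_g_1_023411, fell less (-0.41). DLG genes encode the PSD-95 family: the DLG1 genes fell by 0.34 (Nfu_g_1_005081) and 0.45 (Nfu_g_1_022097, killifish name DLG4) on the log2 scale and the DLG3 gene Nfu_g_1_004297 by 0.99. The gene model of Nfu_g_1_004297 spans only 363 bases. The further GKAP genes DLGAP3 and DLGAP4 fell by 0.61 and 0.29. HOMER3, for a scaffold that binds metabotropic receptors, had 7.83 to 10.8 CPM in wild brains, against 6.56 to 9.77 CPM in captive brains, and did not pass the test (edgeR adjusted p = 0.43).

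The IQSEC3 genes, close relatives of IQSEC1, fell by 0.50 (Nfu_g_1_012048) and 0.27 (Nfu_g_1_008178) on the log2 scale. ARF6, the GTPase that these factors load, went the other way, with 16.0, 17.8, 18.9 and 15.6 CPM in wild fish 1 to 4, against 15.0, 13.1, 14.4 and 11.9 CPM in captive fish 1 to 4 (log2 fold change 0.33, edgeR adjusted p = 0.0353). The groups came within 1 CPM of each other. Its call was lost without wild fish 2, wild fish 3, captive fish 2, captive fish 3 or captive fish 4 and with the length trend removed, with an edgeR adjusted p of 0.0158 to 0.169 over the settings tried.

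**Figure D4:**
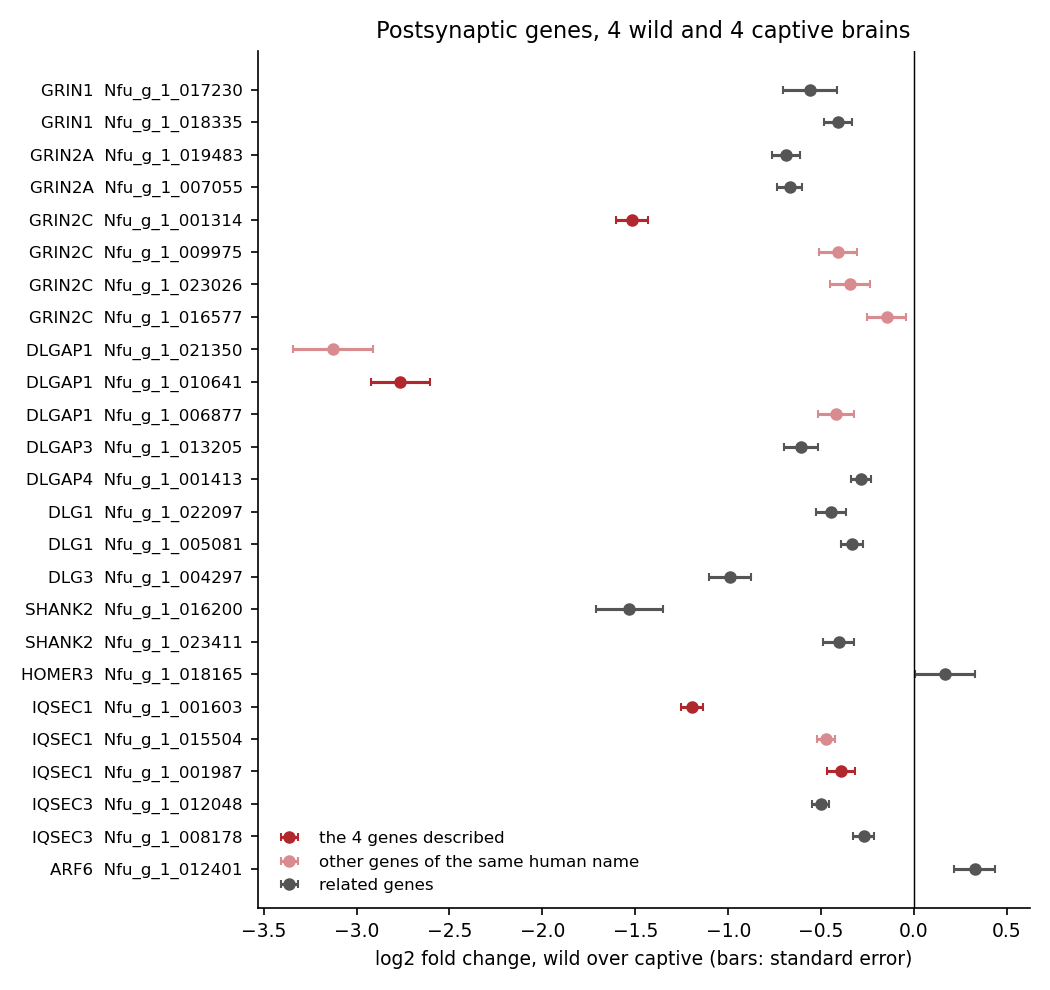
Log2 fold change of wild over captive fish with its SE, 1 row per gene, for the 4 genes described (dark red), other genes of the same human name (light red) and related genes (grey). All but ARF6 and HOMER3 lie left of 0, and Nfu_g_1_021350 and Nfu_g_1_010641, both named DLGAP1, lie furthest left at -3.13 and -2.76.

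The 8 lists cover glutamate receptors, postsynaptic scaffolds, regulators and adhesion proteins, and the ARF pathway. Not every gene in the lists is postsynaptic. The ARF list includes genes of other sites such as the Golgi, and the receptor and adhesion lists are not limited to the postsynaptic side. Without the 4 genes described, the lists held 129 tested genes. They include the 6 other genes of the same names and the 15 partners and relatives counted above, so these counts overlap. Of the 129 genes, 87 (67.4%) were lower in wild fish, against 33.4% of all tested genes with a name. Another 14 (10.9%) were higher and 28 did not pass, and the median log2 fold change was -0.39 against 0.04 over all genes. Over the 62 genes named outside the condition-dependent list, 28 (45.2%) were lower, 6 (9.68%) were higher and 28 did not pass, with a median of -0.18, where the background of such names is 22.9% lower and a median of 0.04. The genes that did not pass are the same in both counts, so every one of the 129 genes named only through that list differed. These backgrounds are not matched for length. The median transcript length per list ran from 2487 bases (AMPA receptor list) to 7909 bases (NMDA receptor list), against 2664 bases over all genes tested. With the length trend removed, 68 of the 129 genes were lower and 14 higher, and over all genes 4049 of 19517 were lower.

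Among NMDA receptor subunits, 6 of 7 were lower and 1, the GRIN2C gene Nfu_g_1_016577, did not pass, and outside the condition-dependent list 2 of 3 were lower. With the length trend removed, 3 of 7 were lower. Of AMPA receptor subunits and their auxiliary proteins, 11 of 17 were lower and 1 was higher, and outside the condition-dependent list 3 of 9 were lower with a median of -0.04. GRIA3 (Nfu_g_1_005215) and GRIA2 (Nfu_g_1_013739), which encode channel subunits, fell by 0.76 and 0.49 on the log2 scale, and CACNG4 (Nfu_g_1_010084), an auxiliary subunit, fell by 1.37. GSG1L, another auxiliary protein, rose by 0.95 at low levels of 2.48 ± 0.71 CPM in wild brains, against 1.29 ± 0.20 CPM in captive brains, and its call was lost without captive fish 3 (edgeR adjusted p of 0.00488 to 0.0546 over the settings tried).

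Of the kainate receptor subunits, GRIK2 (Nfu_g_1_019073) fell by 1.91 and GRIK5 (Nfu_g_1_010180) by 1.19 on the log2 scale. NETO2, a kainate receptor auxiliary protein, rose by 0.29. The G protein coupled glutamate receptors were split, with 3 of 9 lower and 3 higher. Outside the condition-dependent list 1 of 4 was higher and 3 did not pass, so the 3 lower ones are named through that list alone. GRM5 (-0.64) and GRM4 (-0.50) were among the lower ones, and GRM7 and GRM8 (0.32 each) among the higher ones. The most abundant per length of them, Nfu_g_1_021497 (human name GRM2, killifish name GRM7), did not pass at 0.11, but did so without wild fish 1 (edgeR adjusted p of 0.0332 to 0.836 over the settings tried).

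Of 20 scaffold genes, which include the other DLGAP1 genes, 13 were lower and 3 were higher, and outside the condition-dependent list 3 of 8 were lower and 1 was higher. The higher ones included DYNLL2 (Nfu_g_1_007419), a dynein light chain that binds GKAP, at 137 ± 7.36 CPM in wild brains, against 107 ± 4.77 CPM in captive brains (log2 fold change 0.36, edgeR adjusted p = 0.00077), and LIN7A (0.31). The call for LIN7A was lost without wild fish 2, wild fish 4, captive fish 1 or captive fish 4 and with the length trend removed. Of 26 kinases and signalling regulators, 21 were lower and 2 were higher, and outside the condition-dependent list 6 of 10 were lower and 1 was higher. RASGRF1, an exchange factor that binds NMDA receptors in rodents, had 23.4 ± 4.29 CPM in wild brains, against 87.6 ± 9.75 CPM in captive brains (log2 fold change -1.91, edgeR adjusted p = 3.62e-06), and TRIO, another exchange factor, fell by 0.96. The kinase genes named CAMK2D went both ways, at -0.31 (Nfu_g_1_013623) and 0.34 (Nfu_g_1_022489). The call for Nfu_g_1_022489 was lost with the length trend removed. PTK2B, a tyrosine kinase, rose by 1.22, but its call was lost without wild fish 1, wild fish 2, captive fish 1, captive fish 2 or captive fish 4.

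The ARF pathway, to which IQSEC1 belongs, had 17 of 24 genes lower and 2 higher, and outside the condition-dependent list 4 of 11 lower, 2 higher and a median of -0.005. PSD, another exchange factor for ARF6, had 11.6 ± 2.85 CPM in wild brains, against 55.8 ± 9.87 CPM in captive brains (log2 fold change -2.26, edgeR adjusted p = 1.14e-05). ARFGEF2, an exchange factor of the Golgi, fell by 1.18. The GTPases ARF5 and ARF6, in contrast, rose by 0.38 and 0.33. Of 19 synaptic adhesion proteins, 12 were lower and 1 was higher, and outside the condition-dependent list 7 of 13 were lower and 6 did not pass. NLGN2 (Nfu_g_1_009588), the neuroligin of inhibitory synapses, fell by 1.95 (edgeR adjusted p = 5.46e-07), SLITRK3 by 0.72 and LRRC4B by 0.39, and LRRTM1 rose by 0.30.

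Fold changes moved with transcript length over all genes, and the 4 genes differ in length. The GRIN2C copy (9567 bases) and the IQSEC1 copy Nfu_g_1_001987 (8724 bases) are longer than 96.6% and 95.1% of the genes tested. The 500 genes nearest to them in length had median log2 fold changes of -0.28 and -0.26, and 4.0% of the neighbours of Nfu_g_1_001314 lay below it, against 38.2% of those of Nfu_g_1_001987. The 4 genes were chosen by this same difference, so their ranks among neighbours are a description only. With the length trend removed, Nfu_g_1_001314 was at -1.26 and Nfu_g_1_001987 at -0.17 (SE 0.07).

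The DLGAP1 copy (1882 bases) and the IQSEC1 copy Nfu_g_1_001603 (3723 bases) lie where the median of their 500 neighbours was 0.09 for each. Of those neighbours, 1.2% lay below Nfu_g_1_010641 and 5.4% below Nfu_g_1_001603, ranks that again rest on the difference that chose the genes. With the length trend removed, they were at -2.85 and -1.28. The other DLGAP1 genes have longer models, of 6024 bases (Nfu_g_1_006877) and 3462 bases (Nfu_g_1_021350).

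**Figure D5:**
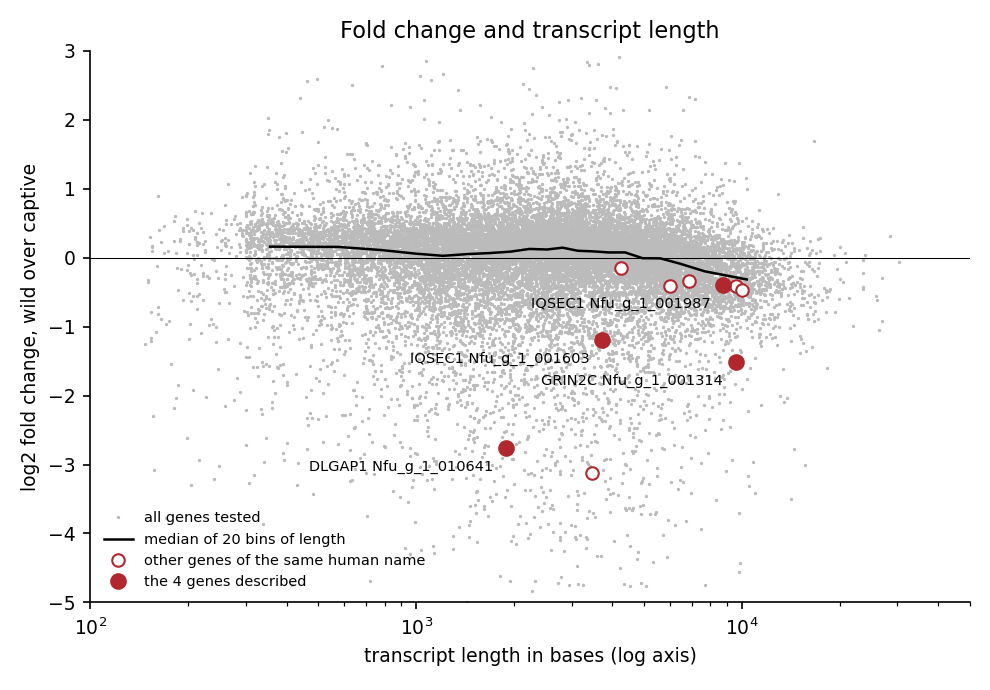
Log2 fold change of wild over captive fish against transcript length in bases (log axis) for all genes tested (grey points, of which 61 lie outside the axes), with the median over 20 bins of length (black line), the 4 genes described (filled red) and the other genes of the same names (open red). The black line sinks below 0 beyond about 5000 bases, Nfu_g_1_001987 lies close to it at -0.39, and the other 3 filled points lie well below it.

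For each of the 4 genes, the 6542 named genes that averaged 100 counts or more were compared, and those with the most similar profile were sought by Pearson's r with log2 CPM over the 8 fish, a measure that the difference between the groups dominates. They were ARID5B, TENM2 and JMJD1C for the GRIN2C copy (r = 0.998, 0.998 and 0.997), and KIF5B, TNRC6B and VPS13B for Nfu_g_1_001603 (r = 0.999, 0.998 and 0.998). For Nfu_g_1_001987 they were CACNA1E, DHCR7 and IRS1 (r = 0.992, 0.987 and 0.985). The DLGAP1 copy was closest to SDK2, a synaptic adhesion protein, GAD2, an enzyme of GABA synthesis, and CEP170B (r = 0.9998, 0.999 and 0.999).

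With the group means subtracted, SDK2 remained the nearest gene to the DLGAP1 copy (r = 0.990), followed by DPP10 and GPN2, and CACNA1E, a calcium channel subunit, remained the nearest to Nfu_g_1_001987 (r = 0.965), followed by SIPA1L3 and NFIX. The nearest to the GRIN2C copy were then YEATS4, PRPS2 and PRUNE2 (r = 0.993, 0.979 and 0.973), and to Nfu_g_1_001603 ETV5, SLC2A13 and MAP3K12 (r = 0.971, 0.970 and 0.969). These are the highest of 6542 values over 8 points and are given as a description.

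Markers of brain cell types moved between the groups in part. The 8 cerebellar granule cell markers summed to 1825 to 1927 RPM in wild and 1453 to 1686 RPM in captive brains, with 5 higher and 2 lower in wild fish. Radial glia and astrocyte markers (12 genes) summed to 5544 to 7445 RPM in wild and 4191 to 5516 RPM in captive brains, with 4 higher and 5 lower. Oligodendrocyte markers (9 genes) summed to 4895 to 7749 RPM in wild and 7336 to 11203 RPM in captive brains, with 2 higher and 3 lower, and endothelial markers (6 genes) to 283 to 329 RPM in wild and 344 to 402 RPM in captive brains, with 1 higher and 4 lower. Of the 17 neuronal markers, 5 were higher and 5 lower. Over all genes tested, 19.8% were higher and 21.8% lower, and over those with a name 65.9% differed and 33.4% were lower. Over genes named outside the condition-dependent list, 46.5% differed and 22.9% were lower. Outside the condition-dependent list, 3 of 12 neuronal markers were higher and 2 lower. Of granule cell markers so named, 1 of 2 was higher and 0 lower, and of radial glia and astrocyte markers 2 of 6 were higher and 1 lower. Of oligodendrocyte markers, 1 of 4 was higher and 0 lower, and of endothelial markers 1 of 3 was higher and 1 lower. Only 1 of 12 microglial markers was found by name among the genes tested, at 6.04 to 17.6 RPM in wild and 5.91 to 7.27 RPM in captive brains. Markers were counted only among genes with at least 1 count in each library, so a marker at 0 in any library would not appear here. The part of cell composition in the levels of the 4 genes was not tested.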

How the data were processed

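The authors' pipeline was bcl2fastq 2.20.0.422 for conversion of the raw reads, TopHat2 2.1.0 for alignment to the masked genome, and featureCounts 1.6.5, run with strand, for gene counts. They deposited whole counts, RPM and RPKM for each library. The deposited RPM are the counts over the library total (largest relative difference 4.97e-15), and the deposited RPKM values divide these by transcript length, which was derived from both. Coordinates and sequences are not given.

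Genes with a count of 1 or more in all 8 libraries were scaled by TMM and tested with edgeR 4.0.16 in R 4.3.3 (quasi-likelihood F-test, Benjamini-Hochberg over 19517 genes, threshold 0.05). The SE is the log2 fold change over the root of F. The common biological coefficient of variation was 0.16. Log2 CPM used a prior count of 2. No pair of replicate libraries was identical, and their chi-square per gene was 7.16 to 15.7. The steps were tested on simulated data.

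The 4 genes and all lists were chosen with earlier results of these data known. Lists were written from general knowledge, and all genes that carry a listed name count. Named genes are the 4 genes, all others of their names, tested GRIN, DLGAP, IQSEC, DLG, SHANK, HOMER and ARF6 genes, per list the 2 called genes of smallest p higher in wild fish, the 2 lower in wild fish and that of highest RPKM, and the 3 most similar profiles. The alternatives were DESeq2 1.42.0, RLE or upper quartile scaling, no count filter, filterByExpr, removal of the length trend, limma-trend (limma 3.58.1) on log2(RPM + 0.5) and leaving out each library. Leaving out genes named only through the list of condition-dependent genes was added after seeing the data. The result of 1 receptor list and of 1 of its genes is not reported here.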

Additional observations from a re-analysis of the deposited data

Results flagged for a closer look

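A fish was marked where its gap to the nearest other fish of its group exceeded Dixon's 95% critical value for 4 samples, which chance passes in about 1 in 20 groups. Of 50 groups examined (the 4 genes, the other genes of their names and the related genes, in wild and in captive fish), 3 were marked. The GRIN2C copy Nfu_g_1_001314 had 131 CPM in captive fish 1, against 155 to 159 CPM in the other captive fish. The DLG3 gene Nfu_g_1_004297 had 16.2 CPM in the same captive fish 1, against 19.8 to 19.9 CPM in the others. The GRIN1 gene Nfu_g_1_017230 had 345 CPM in wild fish 4, against 230 to 247 CPM in the other wild fish.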

How the results depend on the processing

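Each of the 4 genes stayed lower in wild fish under every setting tried, and no named result changed direction. Removing the length trend moved Nfu_g_1_001314 to -1.26, Nfu_g_1_001603 to -1.28 and Nfu_g_1_001987 to -0.17. It left 3 of the other genes of the same names past the threshold and 82 list genes (14 higher, 68 lower). Over all 19517 genes tested, 7027 differed under that setting, 2978 higher and 4049 lower. Counts over genes named outside the condition-dependent list are not given for that setting. Genes named only through the condition-dependent list were left out in an alternative chosen after seeing the data. There, 2 of 3 other genes of the same names and 34 of 62 list genes differed. Of all tested genes named outside that list, 46.5% differed. Leaving out 1 library gave -1.59 to -1.46 for Nfu_g_1_001314, -2.90 to -2.66 for Nfu_g_1_010641, -1.23 to -1.15 for Nfu_g_1_001603 and -0.45 to -0.35 for Nfu_g_1_001987, with 6818 to 7809 genes differing, 4 to 5 other genes of the same names and 92 to 98 list genes. Upper quartile scaling turned the split of all calls to 5046 higher and 3788 lower, with the median log2 fold change of all genes at 0.10, and limma-trend to 4409 higher and 4026 lower, against 3864 higher and 4251 lower in the report. Over single named genes and settings, a call was lost in 33 cases, gained in 1 and kept on its side of the threshold in 686. The NMDA receptor list had 3 of 7 genes lower with the length trend removed. No paired analysis was possible because the labels carry no number that ties a wild to a captive fish. The causes of these shifts were not tested. At 75 to 112 reads per wild library, Nfu_g_1_010641 is measured least precisely.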
